A study of Schizosaccharomyces pombe with 6 samples.

Results

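The unnamed intergenic RNAs of the fission yeast Schizosaccharomyces pombe were compared between a strain with wild-type pla1 and a strain with the pla1-Y86D mutation. They were the features whose systematic identifier starts with SPNCRNA, whose product is given as an intergenic RNA and which have no gene name. This rule took 425 of the 6988 features in the count table and 425 of its 1527 SPNCRNA features. The product of 108 of them carries the further remark that they may be an alternative UTR of a neighbouring gene, and that of the other 317 does not. The rule uses the annotation alone and no measured value.

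Both strains were of mating type h-, and both carried the kanMX drug marker beside the pla1 allele. The controls were strain AGP257 (pla1-WT::kanMX) and the mutants strain AGP259 (pla1-Y86D::kanMX), each grown in YES medium to log phase and each represented by 3 libraries. The labels name 1 strain for each allele and no second isolate. The libraries are called replicate experiments, and nothing says that each had its own culture. The p-values therefore reflect only how these libraries vary, and that variation may be technical. Poly(A)+ RNA was sequenced as stranded paired-end libraries, and totals ranged from 17594840 to 21849845 counts per library.

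Pla1 is the nuclear poly(A) polymerase, which adds the tail to the 3' ends of mRNAs and of many noncoding RNAs made by RNA polymerase II. In fission yeast a poly(A) tail is read in more than one way. It stabilises mRNAs for export, and it also serves nuclear decay, in which the poly(A) binding protein Pab2 and the MTREC complex hand unwanted transcripts to the RNA exosome. Intergenic noncoding RNAs are typical clients of that decay and are kept at low levels in growing cells. Mmi1, an RNA-binding protein that sends meiotic transcripts to the same machinery, recognises the motif UNAAAC.

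The 3' ends of the annotated transcripts are shown first for the intergenic RNAs that differed most between the strains, since 3' ends are where Pla1 acts. The choice was made among the 10 largest increases and 8 largest decreases in fold change described below, whose mean counts all reached 50, and took those without the UTR remark and without a same-strand overlap. Of the increases it took the RNA with the largest gain in CPM, whose last 300 bases are given, and the 3 others with the largest fold change. Of the decreases it took the first 3. For these 6 the last 60 bases are given. Sequences are 5' to 3', of the transcript strand with T for U, from RefSeq assembly ASM294v3, and were found through that assembly's own annotation of the same identifier. The authors' build was ASM294v2, so the annotated ends counted by the authors may differ. Capitals mark AATAAA, the polyadenylation hexamer, and TNAAAC, the Mmi1 motif written as DNA.
SPNCRNA.1444: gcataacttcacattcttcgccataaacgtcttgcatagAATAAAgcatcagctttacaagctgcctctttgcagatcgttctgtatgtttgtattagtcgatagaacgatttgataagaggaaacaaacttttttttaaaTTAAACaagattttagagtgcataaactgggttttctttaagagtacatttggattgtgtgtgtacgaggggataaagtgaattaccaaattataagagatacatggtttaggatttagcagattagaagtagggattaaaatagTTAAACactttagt
SPNCRNA.1304: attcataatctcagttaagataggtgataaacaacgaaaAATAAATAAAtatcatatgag
SPNCRNA.1649: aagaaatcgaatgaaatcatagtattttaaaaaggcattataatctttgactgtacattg
SPNCRNA.1339: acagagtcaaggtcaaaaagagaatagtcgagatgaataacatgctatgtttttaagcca
SPNCRNA.291: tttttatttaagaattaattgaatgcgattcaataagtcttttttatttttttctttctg
SPNCRNA.1605: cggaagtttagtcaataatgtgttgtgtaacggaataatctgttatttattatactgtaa
SPNCRNA.945: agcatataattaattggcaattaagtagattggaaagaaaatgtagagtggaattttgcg

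SPNCRNA.1444 (chromosome II, minus strand, 322 bases) holds TNAAAC in 2 places of the stretch shown, one of them starting 14 bases from the annotated end, and AATAAA in 1 place, 261 bases from it. SPNCRNA.1304 (chromosome II, plus strand) has 2 overlapping AATAAA hexamers, the nearer starting 17 bases from its end. In the other 5 windows, each of 60 bases, neither string was found. These are SPNCRNA.1649 (chromosome II, minus strand), SPNCRNA.1339 (chromosome II, plus strand), SPNCRNA.291 (chromosome II, minus strand), SPNCRNA.1605 (chromosome II, plus strand) and SPNCRNA.945 (chromosome I, minus strand). The windows differ in length, so TNAAAC was also counted over each whole annotated transcript. It occurred 3 times in SPNCRNA.945 and 2 times each in SPNCRNA.1444, SPNCRNA.1339 and SPNCRNA.1605. SPNCRNA.1304 and SPNCRNA.1649 held it 1 time each and SPNCRNA.291 held 0.

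Across all intergenic RNAs both strings were found in those that rose and in those that fell, and differences in their frequency were not tested. AATAAA was present in the last 60 annotated bases of 85 of the 413 matched RNAs (20.6%) and of 17.7% of the other 1013 matched ncRNAs of the table. The share was 24.2% among the RNAs called at least 2-fold higher and 18.9% among those called higher by less than 2-fold. It was 24.0% among those not called, 19.6% among those called lower and 19.0% among the 21 called at least 2-fold lower. TNAAAC occurred 2.01 times per kilobase of all matched intergenic RNAs, against 2.18 on the opposite strand of the same stretches and 1.99 in the other ncRNAs. Its density was 2.12 per kilobase in the RNAs called at least 2-fold higher and 2.1 in those called higher by less than 2-fold. It was 1.97 in those not called, 2.0 in those called lower and 1.83 in those called at least 2-fold lower. AATAAA was searched on the transcript strand only, TNAAAC was counted there and on the other strand, and a stretch may match both strings. The median GC content was 33.6% and the median annotated length was 953 bases, from 219 to 5123.

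More intergenic RNAs were higher than lower in pla1-Y86D. Of the 378 that passed the filter on low counts, 177 (46.8%) were called higher and 104 (27.5%) lower at an adjusted p under 0.05 by edgeR's quasi-likelihood test, and 97 were not called. Over all 6267 features tested, 40.1% were called higher and 41.1% lower. At 2-fold or more, 66 intergenic RNAs (17.5%) were higher and 21 (5.56%) lower, where 9.02% and 2.38% of all features tested were. The median log2 fold change of the tested intergenic RNAs was 0.20 against -0.01 for all features tested. The 378 include 19 RNAs with a mean of fewer than 10 control counts, which all needed mutant counts to pass the filter. These gave 18 of the higher calls, 17 of them at least 2-fold. Of all features tested, 115 had so few control counts, with 100 called higher, 97 of them at least 2-fold.

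The other noncoding classes had a larger share of increases. Of 657 tested antisense RNAs, 402 were higher and 109 lower, with a median of 0.46. The other 409 ncRNAs, which include 4 intergenic RNAs with a gene name, had 152 tested, 103 higher, 14 lower and a median of 0.84. Of 4996 tested protein-coding features, 1779 were higher and 2336 lower, with a median of -0.06. No test between these classes was made.

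As a whole, the 425 RNAs made up a small and slightly larger part of the library in the mutant. They held 0.387%, 0.392% and 0.386% of all counts in the 3 controls, and 0.423%, 0.425% and 0.433% in the 3 mutants. All mutant libraries were above all control libraries. The mean went from 0.388% ± 0.0035 to 0.427% ± 0.0053 (SD, n = 3 per strain), a ratio of 1.10. The 5 RNAs with most counts held 12.3% of the counts of the group and the 50 with most held 46.8%, and without the first 5 the ratio was again 1.10. RNAs that carry no poly(A) tail in their mature form (rRNA, tRNA, snoRNA and snRNA) also took a larger share in the mutant, 0.302% ± 0.0096 of counts against 0.217% ± 0.0085. Their part in the result was not tested. A smaller number of expressing cells and a lower level per cell cannot be told apart in RNA from whole cultures.

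The response differed with the abundance of an RNA in the controls. Levels were set by the mean count of the 3 control libraries, each scaled to the mean library size of 20008464 counts. The summed level of all RNAs in a class, tested or not, is given in CPM, counts relative to library totals scaled by TMM.

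**Figure D1:**
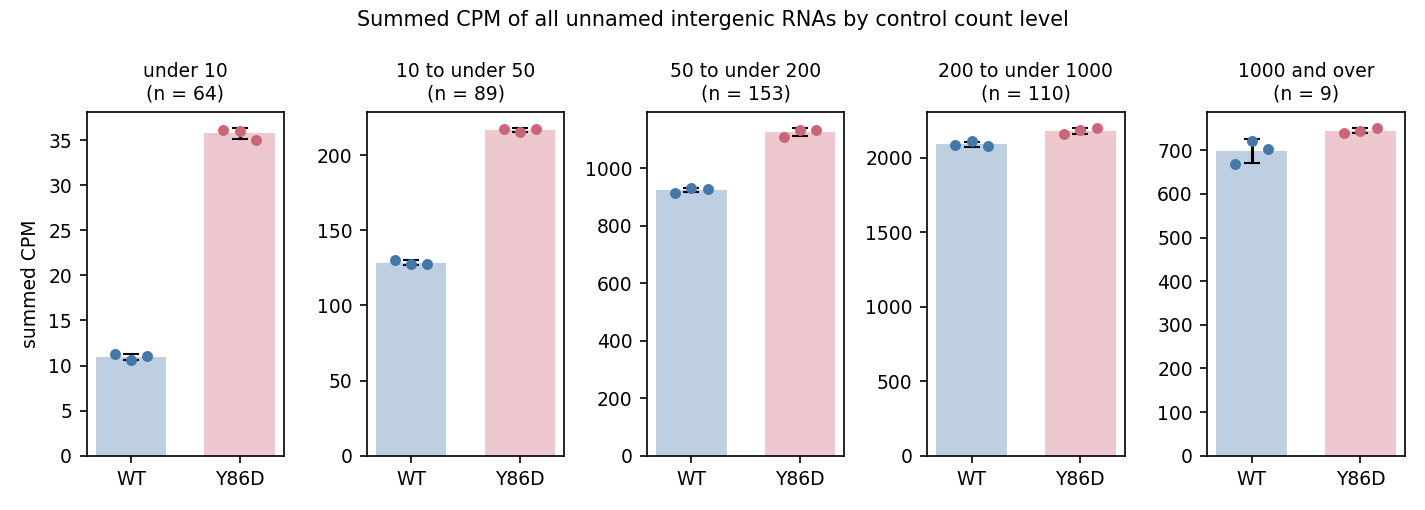
Summed CPM of all 425 unnamed intergenic RNAs in the 5 levels of control count, which are given above each panel with the number of RNAs. Bars are means of 3 libraries with the SD, points are libraries, and each panel has its own axis from 0. The ratio of mutant to control is 3.25 in the lowest level and 1.07 in the highest.

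The 64 RNAs with fewer than 10 control counts were barely present in the wild type, and their sum was higher in the mutant. Together they summed to 11.3, 10.6 and 11.1 CPM in the controls and to 36.13, 36.06 and 35.03 CPM in the mutants, a ratio of 3.25. The strains did not overlap. All features of this level had a ratio of 3.20, close to that of the 64 RNAs. SPNCRNA.1304 alone rose by 5.23 CPM, and the 47 untested RNAs of any level had a summed ratio of 1.51. Only 19 of the 64 passed the filter, and all 19 needed counts in the mutant to pass it, since none had 10 counts in all 3 controls. The filter thus favoured RNAs that were higher in the mutant. The 18 calls among the 19, all upward, are therefore given as a description only. The 1 not called, SPNCRNA.899, named after its values were seen, had 4, 6 and 11 control counts and 11, 6 and 18 mutant counts.

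The 89 RNAs with 10 to under 50 control counts were mostly shifted upward. They summed to 131, 127 and 128 CPM in the controls and to 218, 215 and 218 CPM in the mutants, a ratio of 1.69. Of the 87 tested, 45 were higher, 29 of them at least 2-fold, and 10 were lower, 5 of them at least 2-fold. Their median was 0.58 on the log2 scale. The RNA at the median, SPNCRNA.877, had 48, 47 and 58 counts in the controls and 61, 74 and 70 in the mutants. Its counts were higher in every mutant library, and the change of 0.58 was called (SE 0.17, adjusted p = 0.00199 by edgeR). The 5 that were at least 2-fold lower, named after their values were seen, were SPNCRNA.293 (-1.73), SPNCRNA.1156 (-1.27), SPNCRNA.781 (-1.18), SPNCRNA.1246 (-1.15) and SPNCRNA.1423 (-1.05). Among them SPNCRNA.1156, SPNCRNA.1246 and SPNCRNA.1423 carry the UTR remark.

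From 50 to under 200 control counts, increases and decreases came closer to each other. The 153 RNAs, all tested, had 68 higher and 50 lower, with 16 and 8 at least 2-fold, and a median of 0.17. Their sum went from 915, 931 and 927 CPM to 1109, 1134 and 1134 CPM, a ratio of 1.22. The RNA at the median, SPNCRNA.1016, had 208, 199 and 218 control counts and 190, 198 and 243 mutant counts. It was not called, at 0.17 on the log2 scale with an edgeR adjusted p of 0.0848. Its call was gained when libraries were scaled on protein-coding features and when pla1-WT replicate 1 was left out, at 0.23 and 0.22.

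At 200 to under 1000 control counts the calls were nearly even. Of 110 RNAs, 40 were higher and 42 lower, with a median of -0.04, and the sum moved from 2085, 2110 and 2076 CPM to 2159, 2187 and 2197 CPM, a ratio of 1.04. The median was 0.02 when libraries were scaled on protein-coding features, so its sign is not fixed. At least 2-fold decreases numbered 8 and increases 4. Named after their values were seen, the 4 were SPNCRNA.1444 (2.37), SPNCRNA.1482 (1.53), SPNCRNA.670 (1.28) and SPNCRNA.1352 (1.15). SPNCRNA.1244, the RNA at the median, had 186, 222 and 228 counts in the controls and 158, 173 and 223 in the mutants (edgeR adjusted p = 0.692).

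Of the 9 RNAs with 1000 control counts or more, 6 were higher, 2 lower and 1 not called, and none reached 2-fold. Of all features tested at this level 33.0% were higher and 51.8% lower. The sum of the 9 RNAs was 668, 722 and 703 CPM in the controls and 739, 744 and 751 CPM in the mutants. The spread among the 3 control libraries was large beside this difference of 1.07-fold, although the strains did not overlap.

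**Figure D2:**
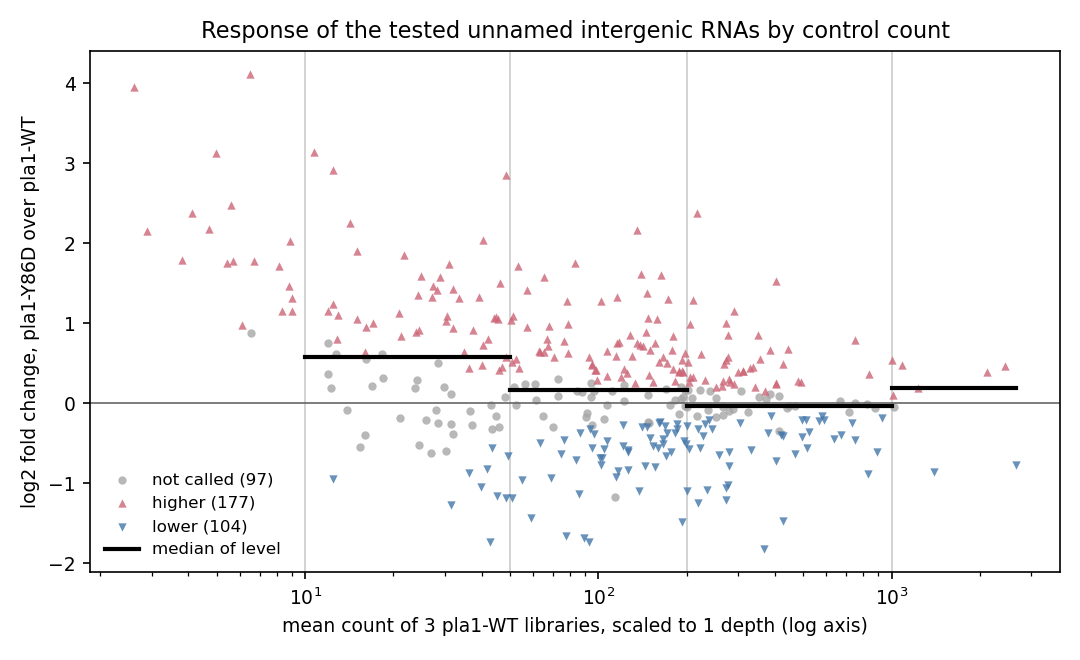
Log2 fold change of each of the 378 tested unnamed intergenic RNAs (pla1-Y86D over pla1-WT) against its mean control count on a log axis. Triangles are RNAs called higher (177, pointing up) or lower (104, pointing down), circles are the 97 not called, vertical lines are the edges of the levels, and black bars are the medians of the 4 levels from 10 counts upward (0.58, 0.17, -0.04 and 0.19).

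The size of change that could be called also depended on the level. The median standard error of the log2 fold change was 0.23 at 10 to under 50 control counts, 0.12 at 50 to under 200, 0.08 at 200 to under 1000 and 0.04 above. The smallest change called was 0.41, 0.23, 0.15 and 0.10 in the same order. These sizes are not limits of detection. Over all features, changes of 0.092 at 200 to under 1000 counts and of 0.05 above were called. Some larger changes were not called, such as -0.59 for SPNCRNA.784 at 10 to under 50 counts.

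The control libraries set both the level and the fold change, and an RNA that happened to be counted low in them will appear raised. Levels were therefore also set by 1 control library, with the ratio taken against the other 2. The lowest level then had ratios of 2.86, 3.28 and 2.94 for the 3 choices of library, and 10 to under 50 had 1.85, 1.54 and 1.5. The ratio was 1.19, 1.25 and 1.25 at 50 to under 200 and 1.05 in each case at 200 to under 1000. With levels set by the mean of all 6 libraries the gradient was flatter, from 1.57 in the lowest level through 1.28, 1.07 and 1.13 to 1.10 in the highest. Such levels move the strongest risers upward and so lower the first ratio.

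**Figure D3:**
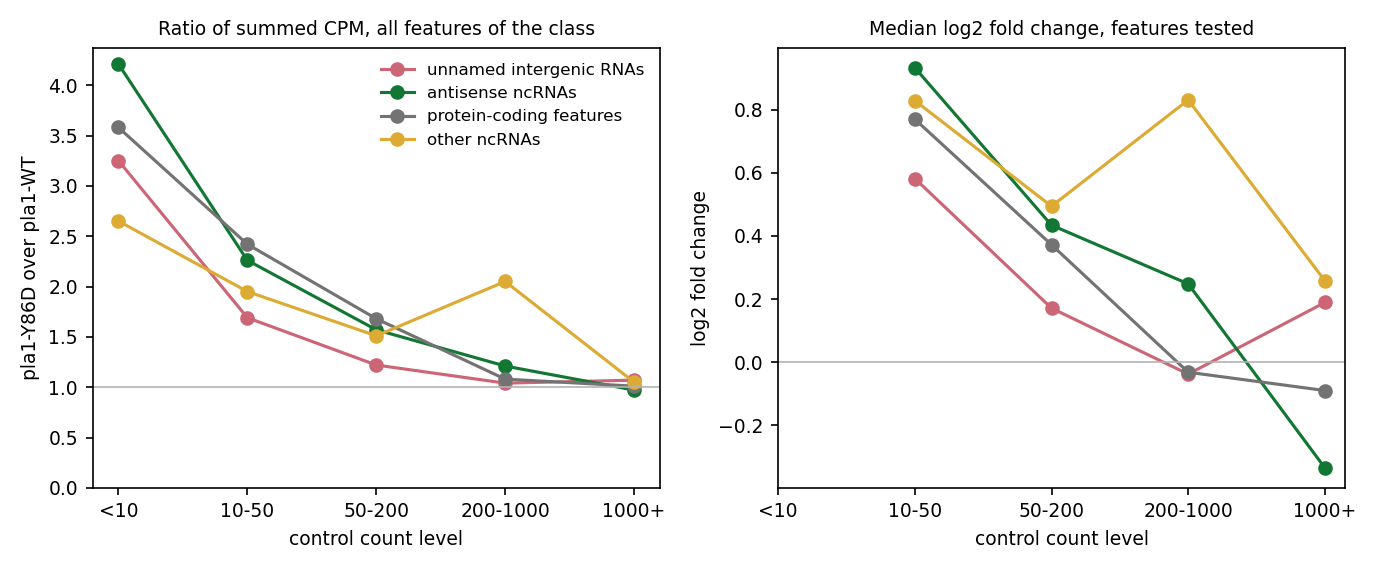
Ratio of summed CPM (left, all features of a class) and median log2 fold change (right, features tested, from 10 control counts upward) in the 5 levels of control count, for the unnamed intergenic RNAs, antisense ncRNAs, protein-coding features and other ncRNAs. In the first 3 of these classes the ratio falls from the lowest level, where it is 3.25, 4.21 and 3.58, to the 200 to under 1000 level, where it is 1.04, 1.21 and 1.08, while in the other ncRNAs it is 2.05 there.

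A gradient of this kind was also seen in antisense RNAs and protein-coding features. The other 409 ncRNAs did not follow it throughout, with ratios of 2.65, 1.95 and 1.51 in the first 3 levels, 2.05 at 200 to under 1000 and 1.05 above. At 10 to under 50 control counts the summed ratio was 1.69 for the intergenic RNAs, 2.26 for antisense RNAs, 2.42 for protein-coding features and 2.11 for all features. At 50 to under 200 it was 1.22, 1.57, 1.68 and 1.52 in the same order. The share called higher in these levels was 51.7% and 44.4% of the tested intergenic RNAs, against 61.2% and 54.5% of all features tested. The share called lower was 11.5% and 32.7%, against 6.38% and 20.9% of all features tested. In both levels the intergenic RNAs were thus below the background in increases and above it in decreases. Their larger overall share of increases stands beside their low counts, since 9 of the 378 tested RNAs had 1000 control counts or more, against 3405 of the 6267 features tested. At 200 to under 1000 counts 36.4% of the intergenic RNAs were called higher and 38.2% lower, against 40.2% and 38.8% of all features tested. None of these differences between classes was tested.

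Among the increases, SPNCRNA.1304 had the largest fold change of those named. It had 11, 6 and 3 counts in the controls and 108, 93 and 113 in the mutants. Its log2 fold change was 4.11 (SE 0.25), given as a description, since it too passed the filter through its mutant counts. Its 20 control counts in all make the size uncertain, and without pla1-WT replicate 1 the value was 4.71. The transcript overlaps cmt2, an O-methyltransferase gene on the opposite strand, by 18.3% of its length, and cmt2 itself had a log2 fold change of 4.12. SPNCRNA.1303, 1103 bases upstream on the same strand, had one of 1.79, with 0.19 ± 0.092 CPM in the controls. This too is a description only, since SPNCRNA.1303 needed its mutant counts to pass the filter.

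SPNCRNA.1071, which carries the UTR remark, had 11, 9 and 14 control counts and 88, 69 and 114 mutant counts, a log2 fold change of 3.14. This value too is given as a description, since the RNA needed its mutant counts to pass the filter and to reach a mean count of 50. It overlaps hsp9, a small heat shock protein gene on the same strand, over 5.15% of its length. The hsp9 mRNA had 176 ± 5.8 CPM in the controls and 1940 ± 37 CPM in the mutants (3.46), and how reads in the overlap were counted is not known.

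SPNCRNA.1649 overlaps no other feature. It had 16, 11 and 12 counts in the controls and 60, 91 and 115 in the mutants, a log2 fold change of 2.91 (SE 0.23). SPNCRNA.1649 reached the mean count of 50 required for naming only through its mutant counts. Its same-strand neighbours tda1, 570 bases upstream, and egt1, 697 bases downstream, had log2 fold changes of -0.42 and -0.17.

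SPNCRNA.1339 lies over 53.6% of its length opposite fet4, which encodes an iron and zinc transporter of the plasma membrane. The RNA had 34, 64 and 57 control counts and 302, 339 and 359 mutant counts. Its level was 2.42 ± 0.61 CPM in the controls and 17.7 ± 0.95 CPM in the mutants, a rise of 2.85 on the log2 scale (SE 0.12, adjusted p = 3.49e-21 by edgeR). The fet4 mRNA went the other way, with 11.2 ± 0.64 CPM in the controls and 4.20 ± 0.55 CPM in the mutants (-1.42).

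SPNCRNA.1444, whose end is printed above, combined a large fold change with a high count. It had 205, 243 and 239 counts in the controls and 964, 1024 and 1200 in the mutants. The level of 10.8 ± 0.31 CPM in the controls became 56.2 ± 0.86 CPM in the mutants, 5.18-fold higher (2.37 on the log2 scale, SE 0.056, adjusted p = 1.03e-28 by edgeR). Per kilobase it went from 33.6 to 175 CPM. It overlaps no other feature and begins 131 bases downstream of rpl26, a ribosomal protein gene on the same strand, which had 1940 ± 87 CPM in the controls and a log2 fold change of 0.12.

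SPNCRNA.1057 had 131, 154 and 143 control counts and 536, 545 and 640 mutant counts, a log2 fold change of 2.17 (SE 0.077). It lies opposite SPNCRNA.260 over 84.3% of its length, and that feature was listed at 0 in all 6 libraries. SPNCRNA.717 had 32, 47 and 50 counts against 138, 160 and 179 (2.04), and SPNCRNA.1622 had 82, 89 and 92 against 242, 270 and 279 (1.75). In both, every mutant library was above every control library. SPNCRNA.1348 lies wholly opposite another intergenic RNA, SPNCRNA.304. It had 36, 26 and 35 counts against 93, 90 and 109 (1.75), and SPNCRNA.304 had a log2 fold change of 0.79. SPNCRNA.717 and SPNCRNA.1348 reached the mean count of 50 required for naming only through their mutant counts.

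SPNCRNA.1604 and SPNCRNA.1605 are read from opposite strands of one place on chromosome II and moved in opposite directions. SPNCRNA.1604 had 43, 62 and 65 control counts and 136, 176 and 186 mutant counts, a log2 fold change of 1.71. SPNCRNA.1605, 90.6% of which lies opposite SPNCRNA.1604, had 95, 103 and 97 counts against 24, 23 and 32, one of -1.74. In the controls SPNCRNA.1605 had 11.3 CPM per kilobase and SPNCRNA.1604 had 4.51, and in the mutants the order was reversed, at 3.36 and 14.8. The next annotated features downstream on either strand, zfs1 after SPNCRNA.1604 and SPBPB7E8.01 after SPNCRNA.1605, had log2 fold changes of -0.57 and -2.65.

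**Figure D4:**
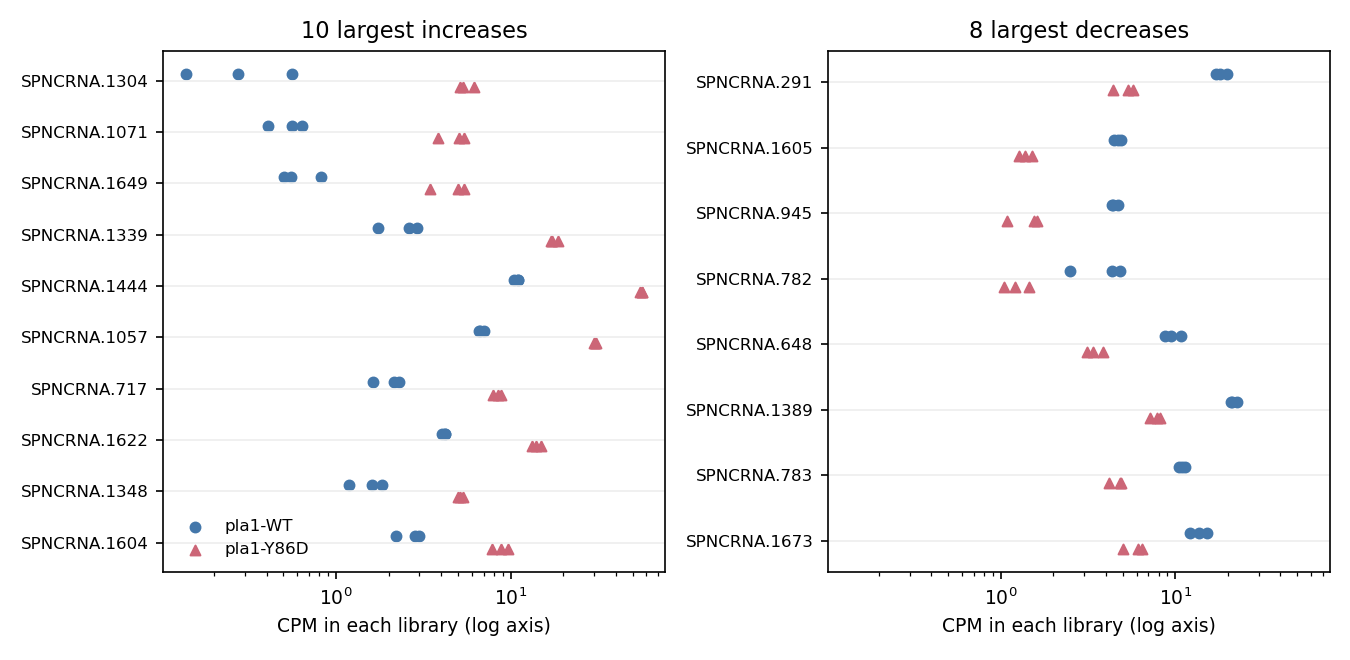
CPM in each of the 6 libraries, on a log axis, for the 10 unnamed intergenic RNAs with the largest increases (left) and the 8 with the largest decreases (right). Circles are pla1-WT and triangles pla1-Y86D, and within each RNA the strains do not overlap, as the rule for naming required.

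The largest decrease was that of SPNCRNA.291, which overlaps no other feature. It had 352, 434 and 374 counts in the controls and 77, 97 and 121 in the mutants. Its level of 18.3 ± 1.3 CPM in the controls was 3.52-fold lower in the mutants, at 5.17 ± 0.68 CPM (-1.82 on the log2 scale, SE 0.099, adjusted p = 5.38e-18 by edgeR). The neighbour upstream on the same strand, alr2-antisense-1, was not called (-0.16).

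SPNCRNA.945 had 85, 103 and 96 control counts against 28, 28 and 23, a log2 fold change of -1.68. SPNCRNA.1389 had 441, 461 and 451 against 125, 147 and 166, one of -1.47. The RNA on the strand opposite 62.3% of it, SPNCRNA.1390, was also lower, at -0.79, as was SPNCRNA.1391, an antisense RNA downstream, at -0.98.

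SPNCRNA.648 is read from the strand opposite mre11, which encodes a nuclease of DNA double-strand break repair, over 89.5% of its length. It had 210, 208 and 190 counts in the controls and 59, 70 and 66 in the mutants, a log2 fold change of -1.48. The antisense RNA 441 bases further downstream on its strand, mre11-antisense-1, had -0.79, and the mre11 mRNA had 0.53. SPNCRNA.1673 partly overlaps abp2 on the opposite strand, over 27.1% of its length. It had 295, 300 and 264 counts against 88, 110 and 136 (-1.21), and abp2 had a log2 fold change of -2.29.

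SPNCRNA.782 and SPNCRNA.783 belong to a run of 8 neighbouring intergenic RNAs on chromosome I, SPNCRNA.777 to SPNCRNA.784, which was singled out after its values were seen. It holds 4 RNAs on each strand, and each overlaps one on the opposite strand. Its summed counts were 1030, 1158 and 944 in the controls and 480, 444 and 589 in the mutants. Of the 8 RNAs, 6 were called lower and none higher, where 27.5% of the tested intergenic RNAs and 41.1% of all features tested were called lower. SPNCRNA.782 had 85, 106 and 54 control counts against 21, 26 and 22 (log2 fold change -1.66, SE 0.24), and SPNCRNA.783 had 214, 250 and 230 against 84, 75 and 103 (-1.25). The other 4 called were SPNCRNA.781 (-1.18), SPNCRNA.780 (-1.14), SPNCRNA.779 (-0.78) and SPNCRNA.777 (-0.57). SPNCRNA.784 and SPNCRNA.778, at -0.59 and -0.30, were not called. The nearest protein-coding features on the strands of the run had log2 fold changes below 0, with -0.46 for SPAC3H1.10, -0.45 for SPAC3H1.11, -0.26 for SPAC3H1.09c and -0.10 for snt2, a PHD finger gene of the Lid2 complex.

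The most abundant intergenic RNAs moved by less than 2-fold, in both directions. SPNCRNA.893 had the highest control level and the largest fall in CPM. It had 2396, 3102 and 2921 counts in the controls and 1360, 1396 and 1651 in the mutants, 133 ± 9.5 against 77.7 ± 0.45 CPM (log2 fold change -0.77, SE 0.042). It was one of the 12 RNAs not matched to the reference, so its position was not used here.

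SPNCRNA.1511 had the second highest control level and the largest rise in CPM. Its counts were 2212, 2796 and 2711 in the controls and 2879, 3022 and 3630 in the mutants, 122 ± 7.5 against 168 ± 3.4 CPM (log2 fold change 0.47). It is a short RNA of 364 bases, 44.8% of it opposite ape2, and per kilobase its control level was 334 CPM, against 82.2 for SPNCRNA.1296. SPNCRNA.863, the next by control level, had 2032, 2405 and 2273 counts against 2474, 2463 and 2898 (0.39). SPNCRNA.861, which follows 85 bases downstream, had a log2 fold change of 1.30, and SPNCRNA.862, opposite 51.0% of SPNCRNA.863, had -0.64.

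SPNCRNA.1296 had 1339, 1553 and 1539 control counts against 664, 702 and 813, which is -0.86 on the log2 scale (adjusted p = 6.02e-20 by edgeR). Its opposite-strand partner SPNCRNA.1297 was lower too, at -1.10. SPNCRNA.1600 changed least of the 5, with 1167, 1382 and 1356 counts against 1200, 1263 and 1522 (0.19). SPNCRNA.1482, next by rise in CPM after SPNCRNA.1511 and SPNCRNA.1444, had 422, 401 and 455 counts against 1019, 1022 and 1262, and went from 20.2 ± 1.7 to 58.2 ± 1.6 CPM (1.53). SPNCRNA.385, a noncoding RNA 76 bases downstream of it, had 0.110 ± 0.068 CPM in the controls and 1.60 ± 0.095 CPM in the mutants (3.79). That value is given as a description, since SPNCRNA.385 needed its mutant counts to pass the filter.

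The RNAs with and without the UTR remark were counted apart. At 10 to under 50 control counts, 35 of the 55 tested RNAs without the remark were higher (63.6%) and 4 lower (7.27%), with a median of 0.89. This is near the 61.2% and 6.38% of all features tested at this level. With the remark, 10 of 32 were higher (31.2%) and 6 lower (18.8%), with a median of 0.10. At 50 to under 200 counts the medians were 0.12 without the remark and 0.25 with it, so the order was the other way. The difference was not tested. Over all levels, 140 of 282 RNAs without the remark were higher and 80 lower, and 37 of 96 with it were higher and 24 lower.

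Position relative to other features was read from the reference annotation for 413 of the 425 RNAs. Although their product says intergenic, 93 overlapped another feature of the table on the same strand, 202 overlapped one on the opposite strand only, and 118 overlapped none. Same-strand overlap was common among RNAs with the UTR remark, 66 of 103, and rare among the rest, 27 of 310. The sources used here do not give how reads in such overlaps were assigned, so their counts are uncertain. Among the 295 tested RNAs with no same-strand overlap, 138 were higher and 84 lower, with a median of 0.21. The 36 RNAs lying wholly opposite another feature had 12 higher and 7 lower of 29 tested, with a median of 0.06. By chromosome, 69 of 157 tested RNAs were higher on chromosome I, 66 of 135 on II and 42 of 83 on III, and 42, 38 and 22 were lower. SPNCRNA.1483 and SPNCRNA.1650 are given as snoRNAs in the reference, and had log2 fold changes of 0.25 (called) and -0.14 (not called).

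The response of an intergenic RNA resembled that of the feature just upstream of it on the same strand when the gap was short. For the 26 tested RNAs with a tested upstream neighbour less than 200 bases away, Spearman's rho between the log2 fold changes was 0.66 and Pearson's r was 0.49. In 20 of the 26 pairs (76.9%) both had the same sign, 10 upward and 10 downward. At gaps of 200 to under 1000 bases rho was 0.35 over 35 pairs, and at 1000 bases or more it was 0.0029 over 210 pairs. The pairs share their libraries and are not independent. The run SPNCRNA.777 to SPNCRNA.784 gave 5 of the 26 close pairs, and without it rho was 0.51 and r was 0.32 over 21 pairs.

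**Figure D5:**
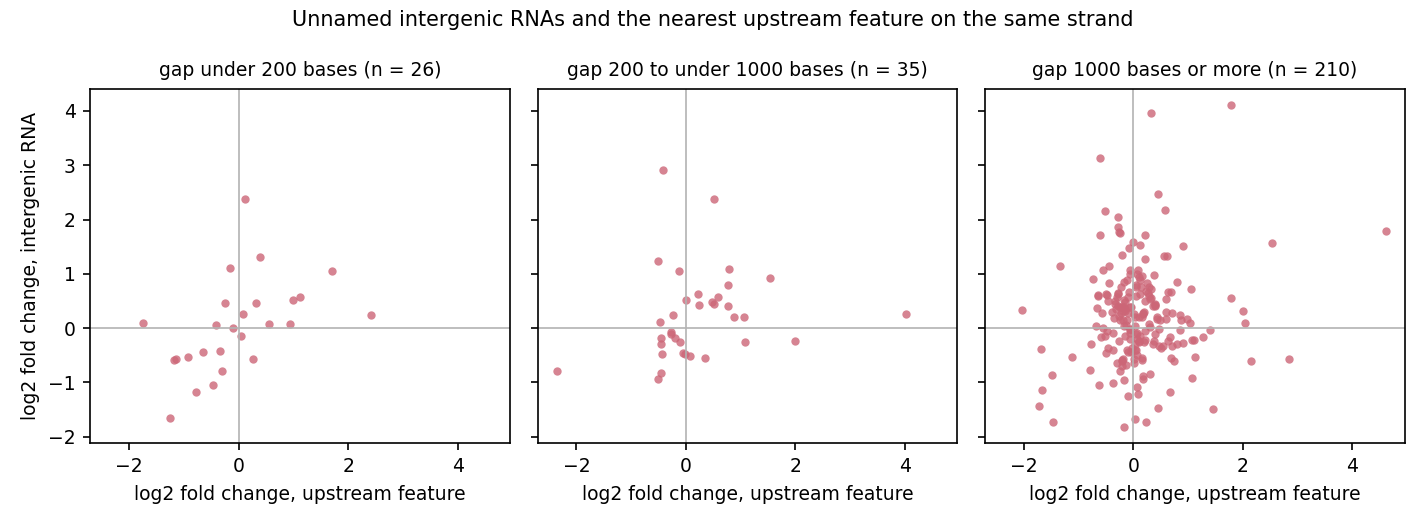
Log2 fold change of each tested unnamed intergenic RNA against that of the nearest upstream feature on the same strand, for gaps under 200 bases (26 pairs), 200 to under 1000 bases (35 pairs) and 1000 bases or more (210 pairs). Each point is a pair without a same-strand overlap, and rho is 0.66, 0.35 and 0.0029 from left to right.

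In the close class 15 of the 26 upstream neighbours were themselves SPNCRNA features. For the nearest downstream feature rho was 0.41 over 59 pairs under 200 bases, 0.13 over 96 pairs at 200 to under 1000 bases and 0.14 over 111 pairs beyond. Here 33 of the 59 close pairs (55.9%) had the same sign, and 43.8% at 200 to under 1000 bases. It was 0.38 over 69 pairs with a feature overlapping on the same strand and 0.12 over 212 pairs with one overlapping on the opposite strand. Among the largest increases SPNCRNA.1444 went against this, since the gene 131 bases upstream was nearly level.

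The 47 RNAs that failed the filter were almost without counts. In 9 of them all 6 libraries were at 0, in 3 the controls were at 0 and some mutant had counts, and in none was it the reverse. The largest sum over the 6 libraries was 57 counts and the median was 14. All 47 together summed to 7.05, 5.83 and 5.78 CPM in the controls and to 8.88, 9.35 and 9.93 CPM in the mutants, without overlap. The 3 with most counts were SPNCRNA.1084 (10, 8 and 5 against 17, 9 and 8), SPNCRNA.1163 (7, 9 and 7 against 8, 14 and 10) and SPNCRNA.808 (2, 3 and 2 against 14, 8 and 26).

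The genes of the machinery that acts on such RNAs mostly differed by less than 2-fold. The list covered Mmi1, MTREC and its cap-binding partners, the nuclear exosome, the TRAMP polyadenylation complex, the nuclear 5' exonuclease and 2 termination factors. Of 30 tested genes, 5 were higher (16.7%), 16 lower (53.3%) and 9 not called, with a median of -0.08 on the log2 scale. Of all protein-coding features tested, 35.6% were higher and 46.8% lower, with a median of -0.06. The largest changes were those of cti1, a cofactor of exosome function, from 71.2 ± 0.95 to 31.7 ± 1.2 CPM (-1.17), and cbc1, the large cap-binding subunit (-0.79). The exosome ring subunit rrp46 followed at -0.68, then red5, of MTREC, at 0.58 and air1, of TRAMP, at -0.56. The pla1 mRNA itself went from 36.6 ± 0.96 to 47.4 ± 0.85 CPM (log2 fold change 0.37), which does not check the labels, since the mutation changes a codon.

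Over all features, the strains separated on the first principal component, which carried 91.0% of the variance. The biological coefficient of variation was 2.42%. Of 4 genes for cells of the opposite mating type, 3 were higher and 1 lower, none by 2-fold. The log2 fold changes were 0.32 for map1, 0.58 for map2, 0.07 for sxa1 and -0.69 for map3. Their summed level was 414 to 434 CPM in the controls and 435 to 452 CPM in the mutants, and none was at 0. Most of that sum was sxa1, at 402 ± 10 against 422 ± 7.8 CPM. The next highest in the controls, map3, had 12.8 ± 0.35 CPM there. Of 4 genes of mating or meiotic entry, mei3 (1.78) and rep1 (1.69) were higher, ste11 (-0.78) was lower and mei2 (-0.05) was not called. The value for mei3, at 0.475 ± 0.095 CPM in the controls, is a description, since mei3 needed its mutant counts to pass the filter. The summed level of the 4 was 43.0 to 44.7 CPM against 63.2 to 65.7 CPM, and none was at 0. The part of either list in the response of the intergenic RNAs was not tested.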

How the data were processed

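Poly(A)+ RNA from 3 pla1-WT and 3 pla1-Y86D libraries was analysed from the authors' tables. The deposited counts are whole numbers of reads per feature, as the authors left them before any scaling. HISAT2 2.1.0 and HTSeq 0.10.0, with SAMtools, DESeq2, DESeq and build ASM294v2, are named in the submitters' processing notes. The sources used here do not give the strand setting, the annotation release or the treatment of reads that align in several places. Per the file headers, the second table is the authors' DESeq2 comparison. Its signal columns are the authors' means of counts divided by size factors, its log2 columns the authors' fold change and standard error, its score the authors' Wald statistic, and its p-value columns are as deposited. Product descriptions were taken from it, and its calls were used only for the comparison in the closing paragraph. The calls given in the Results come from the edgeR fit described next.

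All 6988 features entered edgeR 4.0.16 (R 4.3.3) with filterByExpr (minimum count 10), TMM scaling and a robust quasi-likelihood fit on strain, which was tested on simulated data. Adjusted p-values follow Benjamini and Hochberg over 6267 features. CPM values use TMM-scaled totals. Standard errors are the log2 fold change over the root of F. Errors are SD of 3 libraries. Total counts per library ranged from 17594840 to 21849845, which limits precision as given per level. No library was merged with another, since within a strain each pair had a chi-square of 1.63 to 4.84 per degree of freedom, beyond sampling noise. Alternatives were DESeq2 1.42.0, limma-voom (limma 3.58.1), other scalings, filters and level cuts, a replicate block, and each library left out. The members and lists were chosen with earlier results of these data known.

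RNAs were named by rule: of the called RNAs whose strains did not overlap and whose mean count reached 50, the 10 largest increases and 8 largest decreases; the 5 with the highest control CPM; the median RNA of each level; the 3 untested with most counts; the 3 largest rises and 2 largest falls in CPM; and 5 decay genes with the largest called change. Of the features, 6836 matched RefSeq assembly ASM294v3 by identifier. Because that is not the authors' build, it gave sequences, lengths and neighbours, and no coordinates are printed. Of the decay list, ars2 and pir1 were not matched by name and are not analysed here.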

Additional observations from a re-analysis of the deposited data

How the results depend on the processing

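The counts of intergenic RNAs called higher (177) and lower (104) stayed within 1.5 times under every alternative run. They ranged from 166 to 177 and from 92 to 102 when 1 library was left out, and were 138 and 84 among RNAs without same-strand overlap, a restriction chosen after seeing the data, as were the ratios of summed CPM by level. A filter at a mean count of at least 50 lowered the calls of at least 2-fold from 66 to 38 and from 21 to 13, since fewer RNAs are tested. It also moved the median of the tested RNAs from 0.20 to 0.18, that under 10 control counts from 1.78 to 4.13 and that at 10 to under 50 from 0.58 to 1.34, since only RNAs high in the mutant pass it at such control counts. Without a low-count filter the overall median was 0.24 and that under 10 control counts 1.20. Scaling on protein-coding features raised the overall median to 0.26, that at 200 to under 1000 to 0.017 and that at 1000 and over to 0.24. With levels cut on all 6 libraries the medians were 0.98 under 10, 0.17 at 200 to under 1000 and 0.29 at 1000 and over. Cutting the tested RNAs into 5 equal groups by control count per kilobase gave 0.89, 0.20, 0.21, 0.12 and -0.006 from the lowest group to the highest. Cutting on pla1-WT replicate 1 with a fit without it gave 0.061 at 50 to under 200, and cutting on replicate 2 gave 0.31 at 1000 and over. The cause of these differences was not tested. With 1 library left out, the overall median ranged from 0.19 to 0.21, and the medians by level from 1.65 to 1.94, 0.46 to 0.60, 0.14 to 0.19, -0.06 to -0.02 and 0.17 to 0.20.

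With the replicate block, 173 intergenic RNAs were called higher and 101 lower. Deviations of same-numbered libraries correlated at -0.07, -0.03 and -0.06, so the numbers do not pair the libraries, and none of the 3 mutant libraries correlated best with the control of its own number. Of the 28 named and tested RNAs under 13 alternatives, 361 results kept direction and side of the threshold, none reversed, and 2 were gains of a call for SPNCRNA.1016. SPNCRNA.869 was not tested at a mean count of at least 50. Of the counts by level, 163 stayed within 1.5 times and 17 did not.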

Other observations

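Of the unnamed intergenic RNAs, 162 were called higher and 88 lower at an adjusted p under 0.05 in the authors' deposited table. Of these, 160 and 85 were called in the same direction by edgeR here, none was called in the opposite direction, and 4 were not tested here.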
